A study of Mus musculus with 30 samples.

Results

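The marker genes of B and T lymphocytes were examined in perfused brain tissue of mice with and without B cells. The 9 genes were taken by name: Cd79a, Cd79b, Ms4a1 and Pax5 for B cells, and Cd3e, Cd3g, Cd4, Cd8a and Cd8b1 for T cells. All 9 were found on the array through their transcript accessions, with 12 probes among the 55681 measured, and 9 of 36717 genes and transcripts in all. The question was whether lymphocyte RNA could be detected in this tissue at all, and whether it differed between genotypes.

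B cells recognise antigen through surface immunoglobulin, which signals through its partners Cd79a and Cd79b. T cells recognise antigen through the T-cell receptor, which signals through the Cd3 chains and Cd247, and their co-receptors Cd4 and Cd8 divide helper from cytotoxic cells. Few lymphocytes enter the healthy brain parenchyma. Most of those in the brain lie in the meninges, the choroid plexus, the perivascular spaces and the vessels themselves, and flushing the vessels before dissection removes most of the blood. Mouse microglia can carry some markers used for leukocytes, so only genes restricted to lymphocytes mark lymphocytes in whole tissue.

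The arrays measured RNA from 15 mice, labelled C57BL/6j and aged 15 to 20 months, perfused with PBS, in 2 tissues each: the hippocampus, and what was left of the brain without it (called brain here), with 1 Agilent 1-colour array for each mouse and tissue, 30 arrays in all. The 4 genotypes were WT (3 females), JHT (2 females), 3xTgAD (2 females and 3 males) and 3xTgAD-BKO (2 females and 3 males, JHT_3xTgAD in the labels). JHT mice lack the J segments of the immunoglobulin heavy chain locus, which stops B-cell development at the pro-B stage, so they remain able to make B-lineage precursors and T cells. 3xTgAD mice carry mutant human APP and tau transgenes under neuronal Thy1 regulatory elements and a knock-in allele, and 3xTgAD-BKO mice carry all of these with the JHT deletion. The stock names given in the methods for the congenic 3xTgAD and JHT lines also name another parental strain, and any difference of background cannot be told apart from genotype. JHT and 3xTgAD-BKO mice are called B-cell-deficient (n = 7) and WT and 3xTgAD mice B-cell-sufficient (n = 8). The labels number the arrays of each tissue from 0 to 14. Equal numbers are taken as the same mouse, and those numbers are used below.

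The 75th percentile of processed intensity was 454 to 824 in the hippocampus and 841 to 1636 in the brain before normalisation. All levels below are log2 intensities after quantile normalisation, and a probe was called detected on an array when the scanner software marked it as well above background. The dimmest detected level of an array lay between 3.61 and 4.91. Negative control spots carried that mark in 1.13% of cases in the hippocampus and 2.06% in the brain. One animal stood apart: 3xTgAD-BKO male mouse 0 held the highest of the 15 values for 19.2% of all genes in the hippocampus and 14% in the brain. Its hippocampal array also had the most outlier spots (432, against 102 to 160 on the other arrays), and its brain array shared a slide with hippocampal arrays. Markers of the tissue itself were present, since all 8 neuronal, all 10 microglial and all 10 endothelial genes examined were detected on at least 8 of 15 arrays in each tissue. Ptprc (CD45), which all leukocytes and microglia carry, was detected on all 30 arrays, at 5.03 to 7.54 in the hippocampus and 5.89 to 8.12 in the brain.

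Detected on at least 8 of the 15 arrays of a tissue were 3 of the 9 genes (33.3%) in the hippocampus and 3 of 9 in the brain. Over all genes the share was 62.8% in the hippocampus and 63.7% in the brain. The 3 genes were the same in both tissues: Cd79b, Cd3e and Cd4. Ms4a1, Pax5 and Cd3g were detected on 1 to 3 arrays of a tissue or on none. Cd79a and Cd8b1 were detected on none of the 30 arrays, and the chosen Cd8a probe likewise on none. For scale, 30 genes that mark organs absent from the samples (liver, pancreas, muscle, testis and others) passed the same rule in 40% of cases (hippocampus) and 43.3% (brain), so a detected probe is not by itself a sign of the cell type it is named for.

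**Figure D1:**
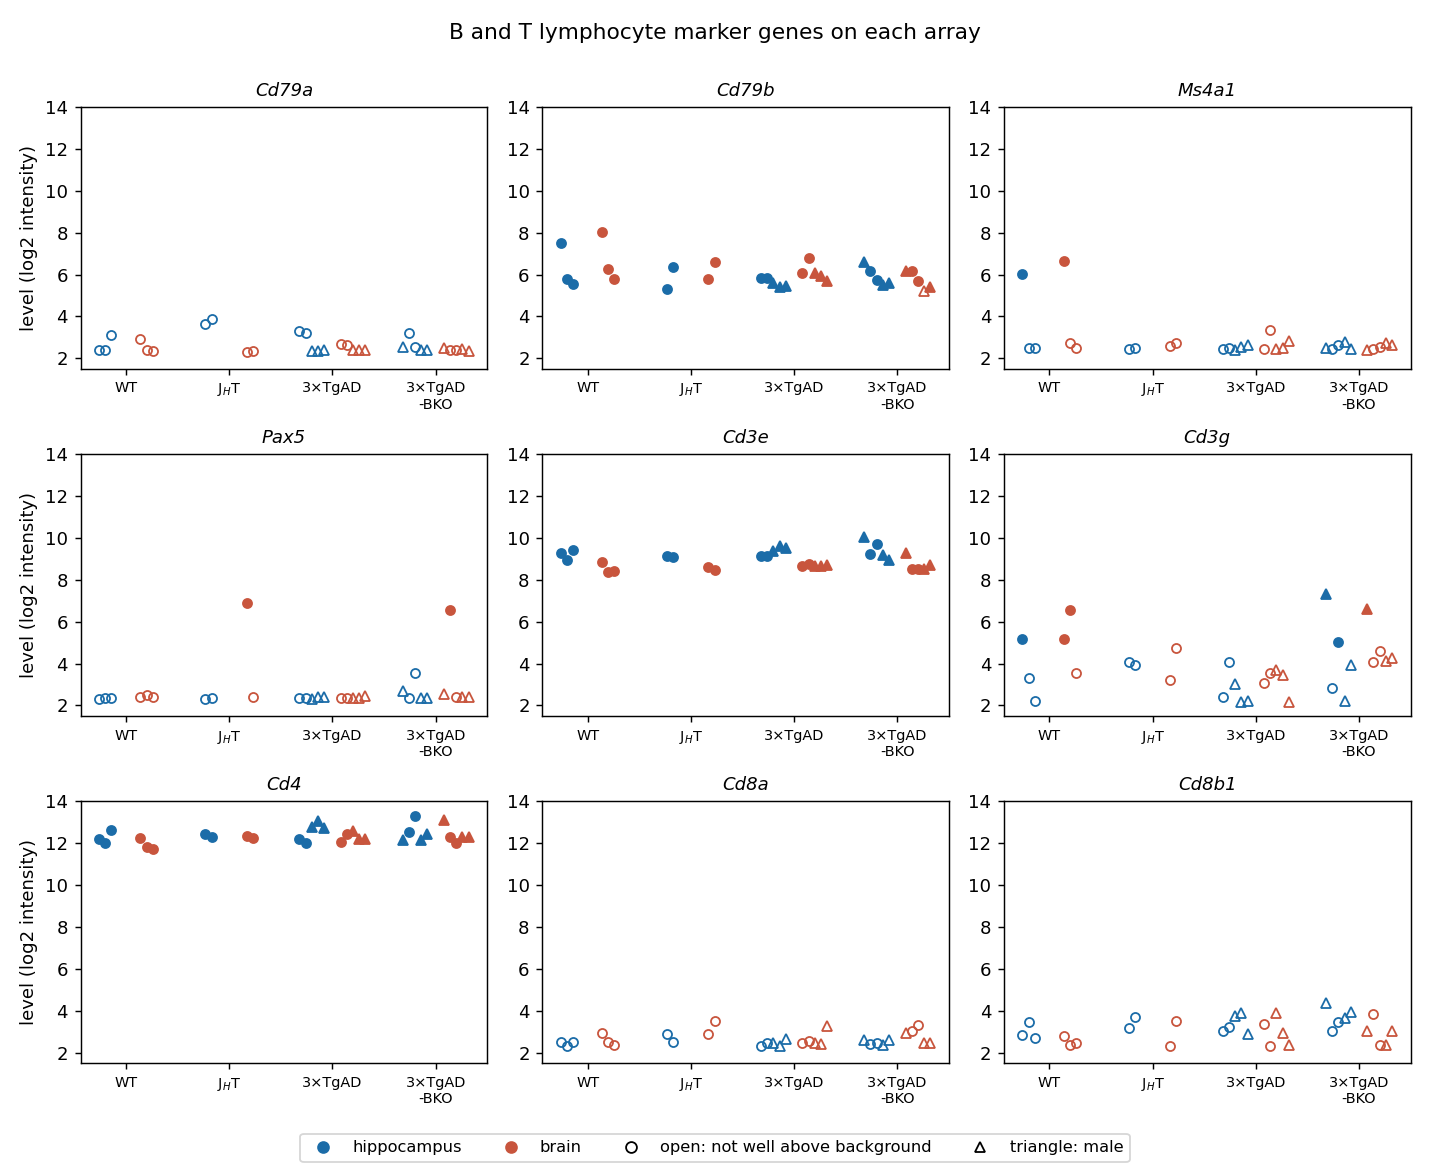
Log2 intensity (y axis) of each of the 9 genes on each array, by genotype and tissue, with filled points for arrays on which the probe was well above background. Cd79b, Cd3e and Cd4 were filled in every genotype, while Ms4a1 was filled only in WT mouse 10, at 6.04 in the hippocampus and 6.67 in the brain.

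Of the B-cell genes, Cd79a, the signalling partner of surface immunoglobulin that every B cell carries, was not detected in any mouse. Its levels were 2.36 to 3.89 in the hippocampus and 2.30 to 2.94 in the brain. These values lie at or below the dimmest detected levels, so groups cannot be ranked on them.

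Ms4a1 encodes CD20, a surface protein of mature B cells. It was detected in 1 of 15 mice, WT female mouse 10, and there in both tissues. The level was 6.04 in the hippocampus and 6.67 in the brain of that mouse. The other 14 mice were not well above background, at 2.41 to 2.78 in the hippocampus and 2.40 to 3.35 in the brain. No 3xTgAD mouse was among those with a detected level, and the other WT females were also below detection.

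Cd79b was detected in every mouse in the hippocampus and in 14 of 15 in the brain, including 13 of the 14 arrays of B-cell-deficient mice. In the hippocampus WT mice had 7.49, 5.77 and 5.56, JHT mice 5.32 and 6.35, 3xTgAD mice 5.85, 5.82, 5.57, 5.38 and 5.45, and 3xTgAD-BKO mice 6.58, 6.16, 5.75, 5.52 and 5.58. In the brain WT mice had 8.03, 6.29 and 5.78, JHT mice 5.77 and 6.62, 3xTgAD mice 6.05, 6.80, 6.05, 5.95 and 5.68, and 3xTgAD-BKO mice 6.19, 6.15, 5.67, 5.19 and 5.42. Mouse 10 was again the highest in both tissues, 1.88-fold above the next mouse in the hippocampus and 2.35-fold in the brain. Among the other mice all 4 genotypes overlapped. The source of the Cd79b signal in mice without mature B cells was not tested.

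Pax5, the transcription factor that holds cells in the B lineage, gave a pattern of another kind. It was detected in no hippocampus, and in the brain of 2 mice, both B-cell-deficient: 3xTgAD-BKO female mouse 6 at 6.57 and JHT female mouse 13 at 6.87. The other 13 brains lay at 2.35 to 2.53, and the hippocampi of the same 2 mice were at 2.33 and 2.32. A second Pax5 probe was detected on none of the 30 arrays. In mouse 10, the mouse with Ms4a1, Pax5 was at 2.31 in the hippocampus and 2.40 in the brain.

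Mouse 10 was also the highest mouse for further B-cell genes, in both tissues. Fcmr, the receptor for IgM, stood at 7.31 and 7.99 in mouse 10 against 6.14 and 7.38 in the next mouse. Ebf1, a B-lineage transcription factor that vessel cells also express, was highest there too, at 7.76 and 9.90 against 7.50 and 9.73 in the next mouse. Spib and Pou2af1, B-cell transcription regulators chosen after their values were seen, were highest in mouse 10 in the brain only, at 5.81 and 5.39. In its hippocampus neither was detected (4.58 and 4.52), and the highest there were 3xTgAD-BKO mouse 0 for Spib (5.35) and 3xTgAD mouse 4 for Pou2af1 (5.04). Spib was also detected in the brain of mouse 0, at 5.41.

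Of the 25 B-cell genes examined, mouse 10 held the highest value of both tissues for 6 (24%), among them Cd79b, Ebf1, Fcmr, Fcrl1 and Ms4a1. Over all genes it did so for 118 of 36717 (0.321%). Ms4a1 and Cd79b are the genes that singled this mouse out, so the count is only a description. Fcrl1 was below detection on all 30 arrays, so its place there carries no level. The summed level of the 21 other B-cell genes in mouse 10 ranked 7 of 15 in the hippocampus and 2 in the brain, so mouse 10 was not the highest on that sum. The sum of the 7 erythrocyte genes in mouse 10 ranked 11 of 15 in each tissue, and that of the 9 neutrophil genes ranked 13 in the hippocampus and 12 in the brain. The microglial sum ranked 6 in each. Its NK and cytotoxic sum ranked 3 in the hippocampus and 1 in the brain. Cd2, an adhesion receptor of T and NK cells, was likewise highest in mouse 10, at 6.60 and 7.11, which was 1.77-fold and 2.59-fold above the next mouse. In whole tissue, fewer cells of a type and less RNA per cell cannot be told apart, so these levels are amounts of RNA, not counts of cells.

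**Figure D2:**
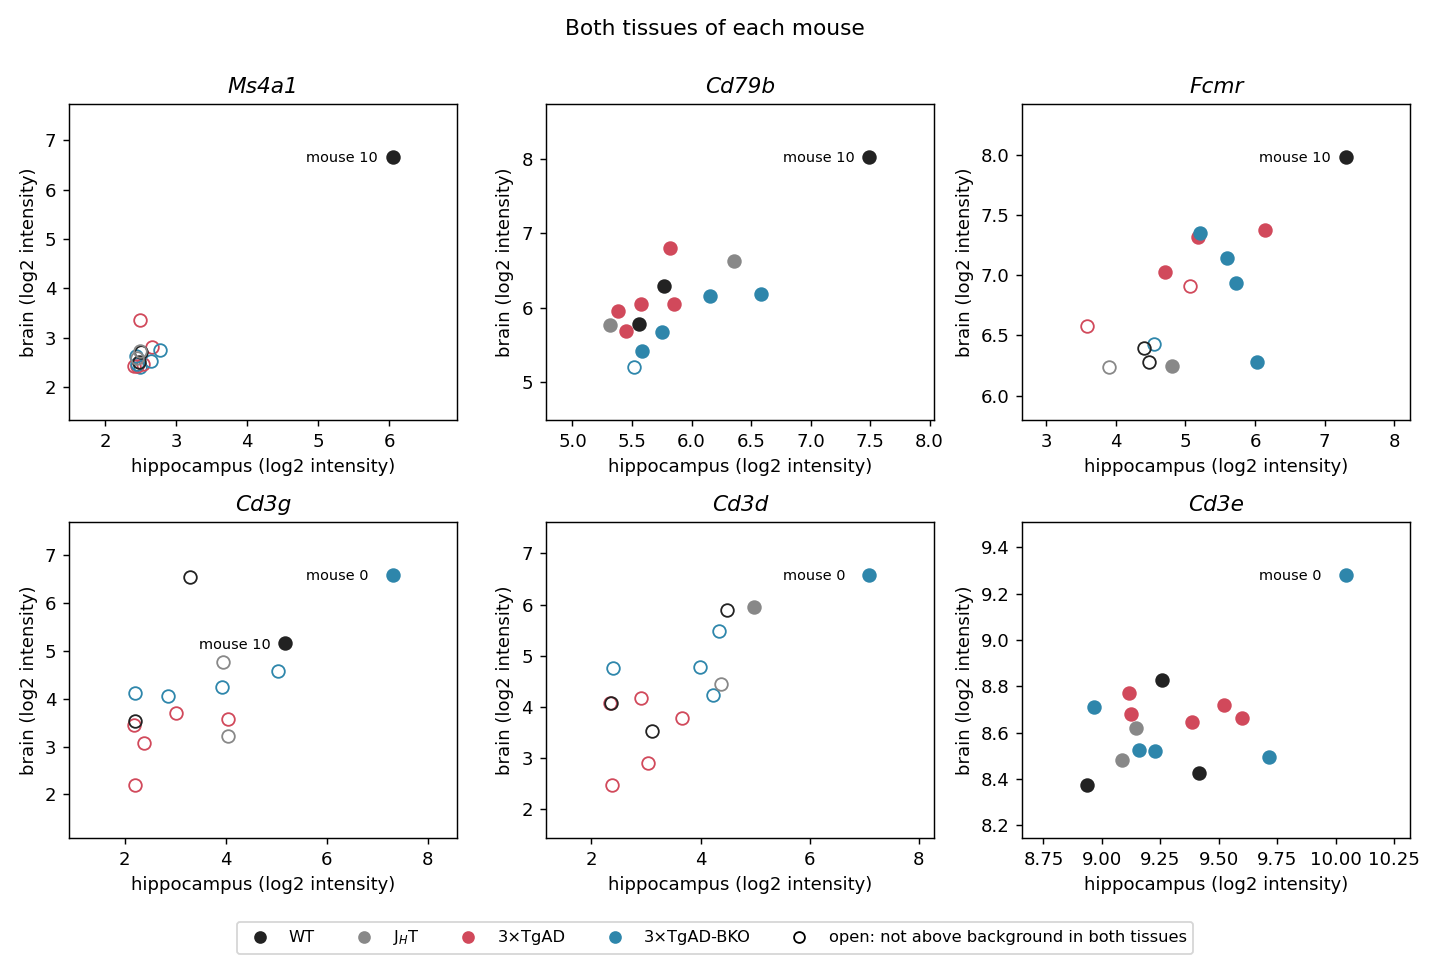
Log2 intensity in the hippocampus (x axis) against the brain (y axis) for single mice, with 1 point per mouse and WT mouse 10 and 3xTgAD-BKO mouse 0 marked. Mouse 10 lies apart in both tissues for Ms4a1 (6.04 and 6.67) and Cd79b (7.49 and 8.03). Mouse 0 has the highest Cd3g (7.31 and 6.58), with WT mouse 11 close to it in the brain (6.54).

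Of the T-cell genes, Cd3e, a signalling chain of the T-cell receptor complex, was detected on all 30 arrays. In the hippocampus WT mice had 9.26, 8.94 and 9.42, JHT mice 9.14 and 9.09, 3xTgAD mice 9.13, 9.12, 9.39, 9.60 and 9.52, and 3xTgAD-BKO mice 10.04, 9.23, 9.72, 9.16 and 8.97. In the brain WT mice had 8.83, 8.37 and 8.43, JHT mice 8.62 and 8.48, 3xTgAD mice 8.68, 8.77, 8.64, 8.66 and 8.72, and 3xTgAD-BKO mice 9.28, 8.52, 8.49, 8.52 and 8.71. All genotypes overlapped in the hippocampus. In the brain the 2 JHT mice lay just below the 5 3xTgAD mice, and every other pair of genotypes overlapped. Mouse 0 was the highest in both, at 10.04 and 9.28.

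Cd3g, the gamma chain of the same complex, behaved unlike Cd3e. It was detected on 3 arrays of each tissue, and in both tissues of mice 0 and 10 only. Mouse 0 had 7.31 in the hippocampus and 6.58 in the brain, and mouse 10 had 5.18 and 5.15. The remaining detections were the hippocampus of 3xTgAD-BKO female mouse 7 at 5.03 and the brain of WT female mouse 11 at 6.54. Over all mice the level ran from 2.18 to 7.31 in the hippocampus and from 2.19 to 6.58 in the brain.

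Cd3d, the delta chain, which is not among the 9 genes, followed Cd3g in mouse 0. It was 7.09 in the hippocampus and 6.58 in the brain of that mouse, against 4.98 and 5.95 in the next, JHT female mouse 14. It was detected in 2 hippocampi, both of B-cell-deficient mice, and in 5 brains, 4 of them B-cell-deficient. Cd3g and Cd3d are neighbours that are read in opposite directions, with start sites 1355 bases apart in the RefSeq annotation of build GRCm38.p6. Their promoter sequences are shown because these 2 chains were the highest in the same mouse in both tissues. Each run gives the 250 bases before the start site, 5′ to 3′ on the strand of the gene, with the E box CAGGTG in capitals. All the matches read CACCTG, its reverse complement.

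Cd3g, chr9:44980432-44980681, minus strand: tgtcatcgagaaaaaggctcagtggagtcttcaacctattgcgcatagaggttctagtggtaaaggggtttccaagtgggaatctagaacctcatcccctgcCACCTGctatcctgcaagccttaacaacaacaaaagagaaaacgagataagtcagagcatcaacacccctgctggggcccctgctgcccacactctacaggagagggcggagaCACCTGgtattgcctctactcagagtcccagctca

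Cd3d, chr9:44981536-44981785, plus strand: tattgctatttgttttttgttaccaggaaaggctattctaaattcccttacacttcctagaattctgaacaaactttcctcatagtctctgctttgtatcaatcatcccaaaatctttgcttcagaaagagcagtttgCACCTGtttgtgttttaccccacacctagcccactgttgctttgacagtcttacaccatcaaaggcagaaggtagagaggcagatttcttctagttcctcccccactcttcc

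The Cd3g promoter held the E box at positions -148 and -35 from the start site and the Cd3d promoter at -112. Searched on both strands, the E box CAGGTG lay in 17.2% of the 32851 promoters of the table, so a match in both is a description of these windows. Of the 9 genes 5 had a promoter entry, and among these Cd79a held the E box as well, at -154. The octamer ATGCAAAT (1.6% of all promoters) and the RUNX motif TGTGGT (14%), searched in the same way, were found in none of the 5.

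Cd4, the co-receptor of helper T cells, had 2 probes that gave different answers. The probe spotted once was detected on all 30 arrays, at 11.99 to 13.31 in the hippocampus and 11.70 to 13.12 in the brain. The probe spotted 10 times was detected on 3 of 30 arrays, the brains of mice 0, 2 and 10, and on 56 of its 300 spots in all. The brighter probe stood for the gene by the rule of the study, so each Cd4 value below is that of a probe which the second Cd4 probe did not follow.

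By the brighter probe, the hippocampus of WT mice had 12.22, 11.99 and 12.62, JHT mice 12.45 and 12.29, 3xTgAD females 12.10 on average (n = 2) and males 12.75, 13.03 and 12.74, and 3xTgAD-BKO mice 12.13, 12.53, 13.31, 12.13 and 12.42. The brain of WT mice had 12.25, 11.82 and 11.70, JHT mice 12.32 and 12.24, 3xTgAD mice 12.07, 12.46, 12.60, 12.19 and 12.22, and 3xTgAD-BKO mice 13.12, 12.27, 12.02, 12.29 and 12.29. The genotypes overlapped in each tissue, and the highest mouse changed from mouse 7 in the hippocampus to mouse 0 in the brain.

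Cd8a and Cd8b1, the chains of the cytotoxic co-receptor, were the T-cell counterpart of Cd79a. Cd8b1 was detected on 0 of 30 arrays, at 2.69 to 4.34 in the hippocampus and 2.29 to 3.88 in the brain. The Cd8a probe spotted 10 times was detected on 0 of 30 arrays, with 8 of its 300 spots above background. The other Cd8a probe was detected once, at 7.63 in the brain of 3xTgAD female mouse 1, whose hippocampus was at 2.29 on that probe.

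Other T-cell genes split in the same way. Cd247, the zeta chain of the receptor complex, was detected in no hippocampus and in 1 brain, that of mouse 1 at 5.18. Lck, the kinase that starts T-cell receptor signalling, was detected on all 30 arrays. Its hippocampal level was 6.48 in mouse 0, the lowest, and 8.37 to 9.09 in the other mice. The mouse with the highest Cd3 chains thus had the lowest hippocampal Lck. In the brain Lck was 8.36 to 8.82.

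Of 26 T-cell genes, mouse 0 held the highest value of both tissues for 4, namely Ccr7 and the 3 Cd3 chains that singled it out, so this count too is only a description. Over all genes mouse 0 was highest in both tissues for 746 (2.03%). The summed level of the 21 other T-cell genes in mouse 0 ranked 2 of 15 in the hippocampus and 15, the lowest, in the brain. Its erythrocyte sum ranked 1 of 15 in the hippocampus and 2 in the brain, its neutrophil sum 2 and 1, and its microglial and pan-leukocyte sums 1 in both. The part of blood, of microglia or of the array itself in the T-cell values of mouse 0 was not tested.

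The further lists of lymphocyte genes showed how far detection reached beyond these 9 genes. Of 21 other B-cell genes with a probe, 12 (57.1%) were detected on at least 8 arrays in the hippocampus and 13 (61.9%) in the brain. Of 21 other T-cell genes, 10 (47.6%) and 12 (57.1%) were, and of 13 NK and cytotoxic genes, 5 (38.5%) and 7 (53.8%). Of 6 plasma cell genes 4 were detected in each tissue. The immunoglobulin constant genes and the constant genes of the T-cell receptor could not be matched to a probe and are not used here.

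The B-cell genes detected on all 30 arrays were Cd22, Cd37, Blnk, Bank1, Btk, Ebf1, Cr2, Tnfrsf13b and Cd24a. Among the T-cell genes on all 30 were Cd5, Cd6, Lck, Zap70, Lat, Skap1 and Tcf7. Several of these are known outside lymphocytes, such as Cd22, Cd37, Blnk and Btk in microglia, Cd24a in neurons and Ebf1 in vessel cells. At the other end, Cxcr5, Fcrla, Fcrl1, Irf4, Themis, Foxp3, Ncr1, Klrb1c, Gzmb and Xcl1 were detected on no array by any of their probes. This group holds the homing receptor of follicular B cells, the regulatory T-cell factor Foxp3, and Ncr1 and Klrb1c, which define NK cells.

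**Figure D3:**
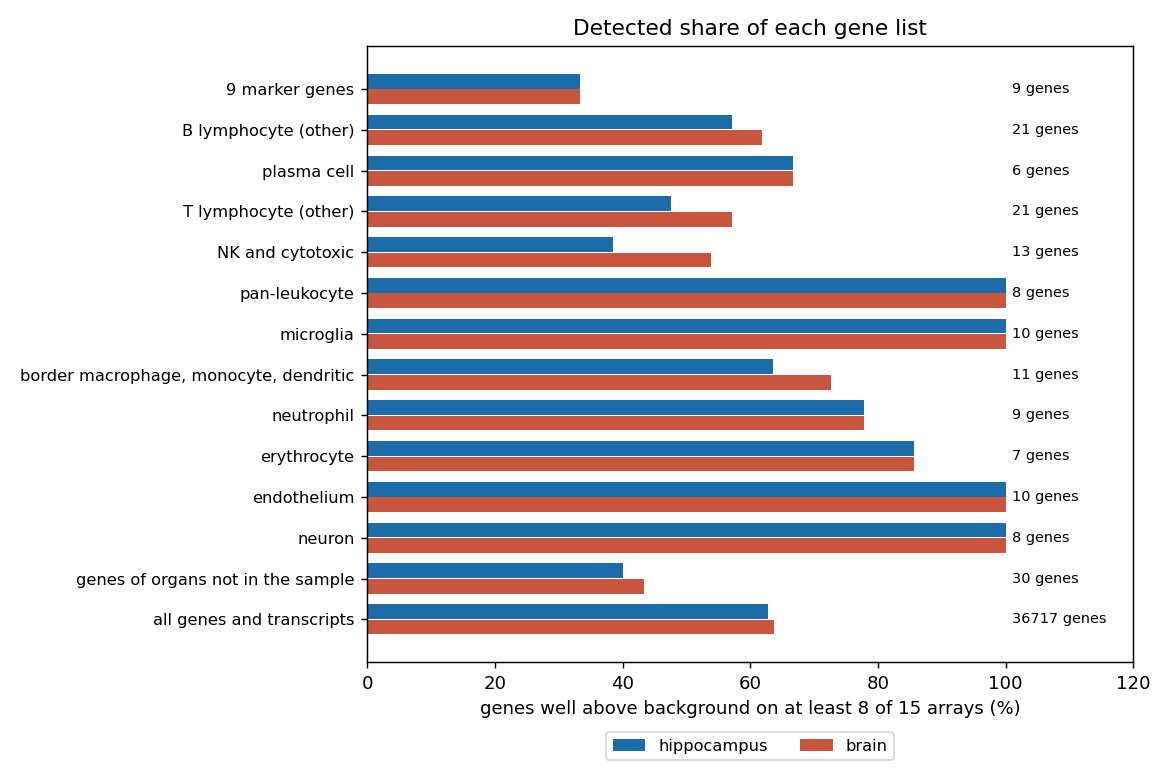
Percent of the genes of each list (bars) detected on at least 8 of 15 arrays in the hippocampus and in the brain, beside the share over all genes. The 9 lymphocyte genes reached 33.3% in each tissue, below all genes (62.8% and 63.7%) and below the genes of organs absent from the sample (40% and 43.3%).

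The first comparison asked whether lymphocyte RNA differed between B-cell-deficient and B-cell-sufficient mice, as the mean of 3xTgAD-BKO against 3xTgAD in each sex and JHT against WT. Of the 9 genes 0 passed the threshold in the hippocampus, where 0.613% of all genes did, and 0 in the brain, where 1.62% did (limma, adjusted p of 0.05). At an unadjusted p of 0.05, 0 of 9 passed in the hippocampus (8.92% of all genes) and 1 in the brain (13% of all genes), Cd8a, which was not well above background. The methods' t-test at that p called 0 in each, against 6.06% and 9.38% of all genes.

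Cd79b was 5.89 ± 0.47 (SD, n = 7) in deficient against 5.86 ± 0.68 (n = 8) in sufficient mice in the hippocampus, a log2 difference of 0.03 (SE 0.31, limma adjusted p = 0.98). In the brain it was 5.86 ± 0.49 against 6.33 ± 0.77, a difference of -0.44 (SE 0.33, 95% interval -1.18 to 0.30, limma adjusted p = 0.61). Without mouse 10 the differences were 0.24 and -0.22. Within slides the hippocampal difference was 0.55 on 1 slide and -0.58 on the other, so its direction was not shared. The first slide set 3xTgAD-BKO against 3xTgAD mice. The other set 3xTgAD-BKO males and JHT females against WT females, mouse 10 among them, so the slides do not hold the same contrast. In the brain the difference was -0.43 and -0.76, on slides of the same kinds.

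None of the T-cell genes passed either. Cd3e differed by 0.05 (hippocampus) and -0.02 (brain) (limma adjusted p = 0.96 in each), with 95% intervals of -0.31 to 0.41 and -0.27 to 0.24. Cd3g differed by 1.06 (SE 0.77, limma adjusted p = 0.78) and 0.59 (SE 0.55, limma adjusted p = 0.66). Without mouse 0 these fell to 0.59 and 0.33. Cd4 differed by 0.10 and 0.16 (limma adjusted p = 0.88 and 0.67). Within slides Cd3g differed by 2.29 and -0.03 in the hippocampus and by 1.06 on 1 slide in the brain and with the opposite sign on the other. No fold is given for Ms4a1, Pax5 and Cd8a, since the arrays without detection set a bound below 1, nor for Cd79a and Cd8b1, detected in neither group.

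Of the 61 other lymphocyte, plasma cell and NK genes, 0 passed in either tissue by limma. With slide as a block 8 passed in the hippocampus, which is 13.1% beside 9.6% of all genes. Of these, 6 were on measured values, among them Cd3d, Eomes, Lck and Tcf7. Within the hippocampus only the 3xTgAD-BKO males lay on both slides, mouse 0 on 1 and mice 8 and 9 on the other, so these calls rest on mouse 0, which had the highest Cd3d and the lowest Lck, and without it the block cannot be fitted. In the brain the block likewise rests on mouse 8 against mouse 9, with mouse 0 on a slide of its own among the brain arrays. There 3 genes passed with that block (4.92%, beside 4.98% of all genes), Gzma and Jchain among them on measured values. At an unadjusted p of 0.05, 6 passed in the hippocampus (9.84%) and 12 in the brain (19.7%), beside the 8.92% and 13% of all genes, and the methods' t-test called 4 (6.56%) and 10 (16.4%), beside 6.06% and 9.38%. The nearest to the threshold in the brain was Jchain, which encodes the chain that joins immunoglobulin M and A into polymers and marks cells that secrete antibody. Its brain levels were 3.59 to 5.19 (median 4.65) in the 7 deficient mice, with 4 of 7 detected, and 4.97 to 7.35 (median 6.05) in the 8 sufficient mice, with 8 of 8 detected.

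By genotype, the brain level of Jchain was 6.62, 6.25 and 5.28 in WT, 4.79 and 5.19 in JHT, 5.85, 7.35, 5.48, 4.97 and 6.39 in 3xTgAD, and 4.26, 4.65, 5.07, 3.59 and 4.37 in 3xTgAD-BKO mice. In each pair of genotypes with and without the deletion the groups did not overlap, except that one 3xTgAD mouse (4.97) lay below the highest 3xTgAD-BKO mouse (5.07). The difference was -1.45 (SE 0.31, 95% interval -2.14 to -0.76, limma adjusted p = 0.0512), just outside the threshold, and -0.60 (SE 0.19, limma adjusted p = 0.286) in the hippocampus. It passed with slide as a block, with dim probes filtered and in the fit over 30 arrays. It did not pass with 75th percentile scaling, the deposited scores, normexp, the mean of probes, the additive fit or either sex alone. In 3xTgAD against WT females the difference in the brain was 0.55 (SE 0.54, limma adjusted p = 0.82). The plasma cell list did not move together. Its 6 genes had a median difference with deficiency of 0.14 in the hippocampus (3 of 6 positive) and -0.17 in the brain (2 of 6 positive), and Sdc1 was on the other side of 0 from Jchain, at 1.22 (limma adjusted p = 0.165) and 0.25 (limma adjusted p = 0.347).

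Gzma, a granzyme of cytotoxic T and NK cells, went the other way in the brain, at 6.58 to 7.68 in deficient and 4.61 to 6.98 in sufficient mice, and was named after its values were seen. The groups overlapped. The difference was 1.22 (SE 0.28, limma adjusted p = 0.0659) in the brain and 1.17 (SE 0.30, limma adjusted p = 0.153) in the hippocampus. The other NK and cytotoxic genes were split: over the 13 genes the median difference was 0.05 in the hippocampus (8 positive) and 0.02 in the brain (7 positive).

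Genes of other cell types were set beside the same contrast, and few of them passed. The median difference over all genes was -0.0063 in the hippocampus and -0.0032 in the brain. Of 8 pan-leukocyte genes 0 passed in either tissue. Their medians were 0.24 and 0.25, with 8 of 8 positive in each and 2 at an unadjusted p of 0.05 in the brain. Of 9 neutrophil genes 1, Retnlg, passed in each tissue, with list medians of 2.54 and 2.29. Of 10 endothelial genes 1, the tight junction gene Cldn5, passed in each, with medians of 0.40 and 0.25. Of 8 genes of meninges and fibroblasts 0 passed in either, with medians of 1.17 and 0.20 and 6 and 3 genes at an unadjusted p of 0.05. In the brain 1 of 10 microglial genes, Trem2, and 1 of 11 genes of border macrophages, monocytes and dendritic cells, Ccr2, also passed. Among the 30 genes of organs absent from the samples 0 passed in the hippocampus and 3 (10%) in the brain, Cela1, Prm1 and Prss2, beside 1.62% of all genes. The 4 genes Retnlg, Cldn5, Trem2 and Ccr2 were higher in deficient mice, and all 7 were named after their values were seen.

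Of 8 choroid plexus genes 0 passed in either tissue, with 0 at an unadjusted p of 0.05. Their median difference was 1.46 in the hippocampus, with 8 of 8 positive, and -0.06 in the brain, with 1 positive. Their summed hippocampal level was 17.85 to 18.34 in JHT and 10.68 to 12.58 in WT mice, without overlap, and 11.22 to 18.43 in 3xTgAD-BKO and 13.40 to 18.53 in 3xTgAD mice. The part of these cell types in the lymphocyte values was not tested.

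The second comparison, the one the study makes in its main sex, set 3xTgAD-BKO against 3xTgAD females (2 against 2). Of the 9 genes 0 passed in the hippocampus, where 0.37% of all genes did, and 0 in the brain, where 1.12% did. At an unadjusted p of 0.05, 1 passed in the hippocampus, Cd4 (16.4% of all genes), and 0 in the brain (12.9%). The methods' t-test at that p called 0 in the hippocampus (13.3% of all genes) and 2 in the brain (17.7%), Cd3e and Cd79a, the latter below background. Cd4 was 12.92 ± 0.55 (SD, n = 2) in 3xTgAD-BKO against 12.10 ± 0.14 in 3xTgAD females, a difference of 0.82 (SE 0.26, limma adjusted p = 0.188). It passed when mouse 6 was left out, at 1.21 with an adjusted p of 0.049, which leaves 1 mouse in a group and assumes that it varies like the other groups. In males the hippocampal Cd4 levels ran the opposite way, 12.13, 12.13 and 12.42 against 12.75, 13.03 and 12.74, and the test of the difference between sexes gave 1.44 (SE 0.33, limma adjusted p = 0.0732).

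In the brain of the same females Pax5 was at least 1.32-fold higher in 3xTgAD-BKO (limma adjusted p = 0.56), which rests on mouse 6 alone. Cd79b differed by 0.12 (hippocampus) and -0.51 (brain), and Cd3e by 0.35 and -0.22. None of the 61 other lymphocyte genes passed in either tissue by limma, with 7 (11.5%, hippocampus) and 11 (18%, brain) at an unadjusted p of 0.05, beside the 16.4% and 12.9% of all genes. The methods' t-test called 7 (11.5%) and 9 (14.8%) of them, below the 13.3% and 17.7% of all genes.

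The third comparison asked whether transgenic tissue held more lymphocyte RNA, in 3xTgAD against WT females (2 against 3). Of the 9 genes 0 passed in the hippocampus (0.746% of all genes) and 0 in the brain (1.15%). At an unadjusted p of 0.05, 1 passed in the hippocampus, Cd79a, which was below background in both groups (12% of all genes passed), and 0 in the brain (11%). The methods' t-test called 0 in each, against 13.5% and 13% of all genes. Cd79b differed by -0.44 (hippocampus) and -0.27 (brain), and by 0.17 and 0.39 once WT mouse 10 was left out. Cd3e differed by -0.08 and 0.18, and Cd4 by -0.18 and 0.34. Cd3g in the brain was at least 1.99-fold lower in 3xTgAD (limma adjusted p = 0.57), since the 2 WT mice that carried it stood at 5.15 and 6.54. These 2 genotypes lay on different slides and are linked only through the 3xTgAD-BKO males named above, so that a fit with slide as a block rests on mouse 0 in the hippocampus and on mice 8 and 9 in the brain. With slide as a block Cd3e passed in the hippocampus, at -1.06 (limma adjusted p = 0.0473), where 8.88% of all genes did. Of the 61 other lymphocyte genes 8 (13.1%) passed with that block in the hippocampus, 2 of them on measured values, and 4 (6.56%) in the brain, 3 on measured values, where 3.08% of all genes did.

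Of the 61 other lymphocyte genes 0 passed in the hippocampus, with 8 (13.1%) at an unadjusted p of 0.05, beside 12% of all genes, and 10 (16.4%) by the methods' t-test, beside 13.5%. In the brain 6 (9.84%) passed at an unadjusted p of 0.05, beside 11% of all genes, and 11 (18%) by the methods' t-test, beside 13%. After adjustment Il7r alone passed there (1.64%, beside 1.15% of all genes). It encodes the interleukin-7 receptor of naive and memory T cells and lymphoid progenitors. Brain levels were 6.04 and 5.96 in 3xTgAD and 3.17, 4.02 and 3.16 in WT females, none of the latter detected, at least 3.17-fold higher in 3xTgAD (limma adjusted p = 0.0488). Detected too were all 3 male 3xTgAD brains, at 5.65, 6.17 and 6.28, both JHT brains, at 4.43 and 4.80, and 4 of 5 3xTgAD-BKO brains, at 5.04 to 5.70. In the hippocampus the difference was 2.45 (limma adjusted p = 0.346), and 0.30 with slide as a block. The brain call was lost with 75th percentile scaling (adjusted p = 0.0672), with the deposited scores (0.0988), and without any single mouse of the 2 groups (0.0573 to 0.194). With slide as a block it held (adjusted p = 0.00201).

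**Figure D4:**
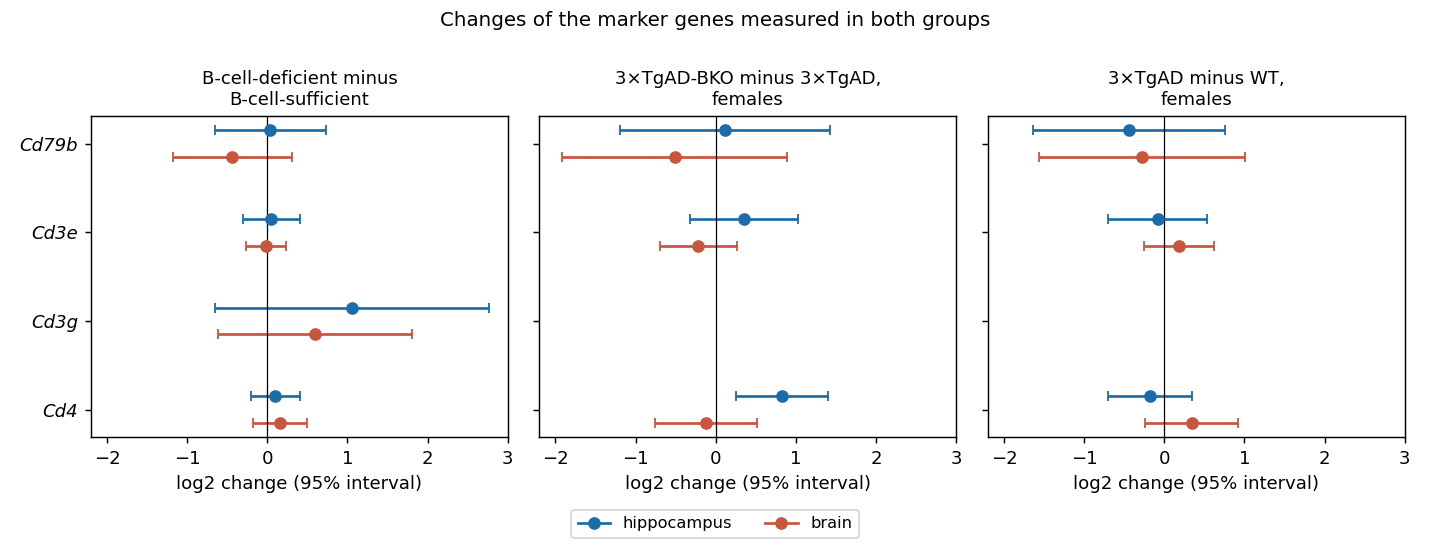
Log2 difference (x axis) with its 95% interval, before adjustment over genes, for the genes measured on both sides of each of these 3 comparisons (panels), in the hippocampus and the brain. All intervals shown cross 0 except that of Cd4 in the hippocampus of 3xTgAD-BKO against 3xTgAD females, at 0.82, whose adjusted p was 0.188.

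Between tissues, the hippocampus was set against the brain over all 15 mice. Here 51.1% of all genes passed, and of the 9 genes 4 did, among which Cd3e alone was measured in both tissues. Cd3e was 9.31 ± 0.30 (SD, n = 15) in the hippocampus and 8.65 ± 0.22 in the brain, higher in the hippocampus in every mouse, by 0.66 (SE 0.10, limma adjusted p = 1.1e-05). Tissue and slide are nearly the same division, and with slide as a block, which rests on 1 brain array, Cd3e was -0.52 (adjusted p = 0.144) and Cd3g passed in its place, where 18% of all genes did. Cd79b differed by -0.24 (SE 0.24, limma adjusted p = 0.42), and passed once the mouse was a block (adjusted p = 0.00696), which uses the 2 tissues of each animal. Cd79a and Cd8b1 passed on values below background, and Cd8a gave no bound above 1.

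Other lymphocyte genes also differed between tissues, 26 of 61 (42.6%), 24 of them on measured values. Higher in the hippocampus were Zap70, a T-cell receptor kinase, by 1.59, and Cd22, an inhibitory receptor of B cells and microglia, by 1.39. Higher in the brain were the plasma cell proteoglycan Sdc1 (-2.70), Ebf1 (-2.48), the T-box factor Eomes (-2.44), the BAFF receptor Tnfrsf13c (-2.16), Cd6 (-1.98), Fcmr (-1.74), the co-stimulatory receptor Cd28 (-1.34), Cd5 (-1.30) and Jchain (-0.93). The share of 42.6% lies below the 51.1% of all genes that differed.

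The change with B-cell deficiency differed between the tissues for 0 of the 9 genes, where 24 of 36716 genes did (limma). That of 3xTgAD-BKO against 3xTgAD differed between the sexes for 0 in either tissue. There 9 of 36716 genes did so in the hippocampus and 37 of 36717 in the brain, so few genes passed at all. Last, the 3 genes detected on at least 24 arrays were set beside all 14860 such genes over the 30 arrays, each gene after subtraction of its tissue means. The arrays share slides and mouse 0, so these are descriptions. Cd79b was most like Pcdhb2 (r = 0.756), Cxcl12 (0.644) and H2-Oa (0.633). Cd3e was most like Khsrp (0.884), Aanat (0.878) and Akt1 (0.861). Cd4 was most like Apobec3 (0.946), Lin28a (0.934) and Gm10318 (0.932). No other lymphocyte marker of the lists stood among the 3 nearest genes of any.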

How the data were processed

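The authors deposited 1 Agilent scanner file per mouse and tissue, holding the background-subtracted processed intensity of each spot, its median foreground and background intensity, and flags for spots well above background. They also deposited a table of scores, each of which was found to be the Z score of the log10 intensity within its array (lowest correlation 1.00, largest median absolute difference 0.00254). Control spots (3671 of 62976) and outlier spots were left out. After log2 transformation the 30 arrays were quantile-normalized together, and of several probes the one with the highest mean level represented its gene, as in the study's methods. No spot was saturated. The array annotation uses build mm9. Each replicate is a separate animal, and precision is limited by how few there are per group.

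Comparisons used R 4.3.3 with limma 3.58.1, fitted to the 15 arrays of each tissue with 6 genotype-by-sex groups (12 groups and 30 arrays between tissues) and Benjamini-Hochberg adjustment over all genes, at a threshold of 0.05. Where a group had no detected array, the difference is a bound ("at least") against the dimmest detected level of each array, and is not given where it is under 1 or where neither group was detected. The tissues were paired by the numbers in the labels, which do not state that equal numbers are the same animal. The correlation of paired deviations over 19491 genes had a median of 0.105 and was above 0.1 in 8 of 15 pairs. In groups of 2 mice the deviations mirror each other and give the same value, so the 15 pairs are not all separate. Tested on simulated data for 36717 genes with 200 shifted by 2 on the log2 scale, limma called 182 of them for deficiency in the hippocampus, 188 in the brain and 197 between tissues, with 10, 12 and 10 unshifted genes called.

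The 9 genes and all lists were chosen with earlier results of these data known. Named were the 9 genes, other lymphocyte genes past the threshold in a comparison or detected on all 30 arrays, Cd3d, Cd247, Lck and Ptprc, up to 3 genes of any other list, and the 3 genes most like each well detected one. Some genes of these lists are not reported here. Other genes are said to be chosen after their values were seen. Alternatives covered the detection rule, scaling, background correction, filter, probe rule, slide and mouse blocks, samples in the fit, the methods' t-test and leaving out each mouse. Promoters are from RefSeq, and no protein or probe sequence was used here.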

Additional observations from a re-analysis of the deposited data

Results flagged for a closer look

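Values of single mice stood apart in 10 of the 34 groups of mice examined by Dixon's test. A group was examined only where at least 1 array was detected, so some groups entered through the high mouse itself. The groups also overlap, since the mice of a genotype lie within those with or without B cells. The count therefore cannot be set against a rate by chance. All were the highest value of their group. WT female mouse 10 was apart among the 8 B-cell-sufficient mice for Cd79b in the hippocampus (7.49) and for Ms4a1 in the hippocampus (6.04) and the brain (6.67). 3xTgAD-BKO female mouse 6 was apart among the 5 brains of its genotype for Pax5 (6.57). 3xTgAD-BKO male mouse 0 was apart in the brain for Cd3e (9.28) and Cd4 (13.12), among both the 5 mice of its genotype and the 7 B-cell-deficient mice, and for Cd3g (6.58) among the mice of its genotype. 3xTgAD-BKO female mouse 7 was apart among the 7 deficient hippocampi for Cd4 (13.31). The brain array of mouse 0 was the only one on a slide of hippocampal arrays, and the part of the slide in its values was not tested.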

How the results depend on the processing

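Of 190 counts of detected or called genes recomputed under alternatives, 156 stayed within 1.5 times their value. No direction of a called genotype difference turned, but Il7r in the brain was the only lymphocyte gene so called in the main fits. Under the looser mark of a positive and significant spot, 6 of the 9 genes were detected in the hippocampus and 5 in the brain, with 5 and 5 above the 95th percentile of the negative controls and 5 and 6 on at least 1 array. Leaving out each mouse kept both counts at 3. Counted on measured values, none of the 9 genes was called for B-cell deficiency under any alternative run. Cd3e was called for 3xTgAD against WT females in the hippocampus with slide as a block (1 gene), and for 3xTgAD-BKO against 3xTgAD in the brain by the methods' t-test at an unadjusted p, an alternative chosen after seeing the data (1 gene). Leaving out a mouse gave 0 to 1 for 3xTgAD-BKO against 3xTgAD in the hippocampus and 1 to 2 between tissues, and the 75th percentile scaling and the mean of probes each gave 2 between tissues (Cd3e and Cd4). With the mouse number as a replicate block 2 were called between tissues, Cd3e and Cd79b. The comparisons within a tissue have 1 array per mouse, so the mouse block does not apply there.

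Of the 61 other lymphocyte genes, counted on measured values, deficiency called 6 in the hippocampus with slide as a block (9.6% of all genes were called) and 3 over 30 arrays (2.04%), and 2 in the brain with filtered dim probes, slide as a block, over 30 arrays or at a threshold of 0.1 (Gzma and Jchain each time, with 1.44% to 4.98% of all genes called), with 0 to 2 when a mouse was left out. 3xTgAD-BKO against 3xTgAD females called 2 in the hippocampus over 30 arrays (2.4% of all genes) and 1 in the brain with slide as a block (2.76%). 3xTgAD against WT females called 2 with slide as a block (8.88%) and 1 over 30 arrays (2.86%) in the hippocampus. In the brain it called 3 with slide as a block (3.08%) and 0 with 75th percentile scaling, the deposited scores, the groups alone, all 30 arrays, the adjusted t-test or any mouse of the 2 groups left out. The t-test at an unadjusted p called 4, 7, 5, 4, 7 and 7 in the order of the comparisons above, hippocampus before brain, where 6.06%, 9.38%, 13.3%, 17.7%, 13.5% and 13% of all genes were called. Between tissues slide as a block called 13 (18% of all genes), against 24, and leaving out a mouse 22 to 26.

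Several differences changed sign, and not all of them were near 0. All were uncalled in the main fits except that of Cd3e between tissues, which was called there. With normexp, deficiency gave -0.0079 for Cd79b and -0.0019 for Cd3e in the hippocampus and 0.031 for Cd3e in the brain, where the t-test gave 0.023 and the additive fit 0.0094. Females alone gave -0.16 (Cd79b, hippocampus) and -0.050 (Cd3g, brain). Males alone gave -0.11 (Cd3e) and -0.61 (Cd4) in the hippocampus and 0.16 (Cd3e) in the brain. JHT against WT gave -0.44 (Cd79b) and -0.089 (Cd3e) in the hippocampus and 0.0082 (Cd3e) and -1.09 (Cd3g) in the brain, and the mean of probes -0.038 for hippocampal Cd4. Leaving out a mouse gave -0.14 to 0.24 for Cd79b, -0.059 to 0.13 for Cd3e and -0.028 to 0.23 for Cd4 in the hippocampus, and -0.090 to 0.037 for Cd3e in the brain. For 3xTgAD-BKO against 3xTgAD it gave -0.082 to 0.32 (Cd79b, hippocampus) and -0.31 to 0.072 (Cd4, brain). For 3xTgAD against WT it gave -0.80 to 0.17 and -0.73 to 0.39 (Cd79b) and -0.22 to 0.024 (Cd3e, hippocampus). Between tissues the 75th percentile scaling gave 0.039 for Cd79b and 0.35 for Ms4a1, normexp 0.0021 for Ms4a1, the mean of probes -0.19 for Cd4, and slide as a block 0.20 (Ms4a1), -0.52 (Cd3e) and -0.49 (Cd4). The causes were not tested. Signal over background limits what can be said of Cd79a, Ms4a1, Pax5, Cd8a and Cd8b1.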
